A study of Homo sapiens with 10 samples.

Results

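The peaks described here are those that poly(A) 3′-seq placed inside the coding sequence of human genes, that is, between the start and the stop codon of a protein-coding transcript and away from its annotated end. A peak was a member when its summit, the base of highest read pileup, lay in a coding segment of a protein-coding transcript of GENCODE 44, and not between 200 bp before and 600 bp after any annotated transcript end, and where all genes at the summit lay on 1 strand. The rule found 4857 members in 2893 genes, or 2.72% (95% Wilson interval 2.65 to 2.80%) of the 178392 peaks on chromosomes 1 to 22, X and Y and of 178837 peaks in all. Summits in coding sequence of any strand numbered 8123, of which 2400 were left out because they lay in a window around a transcript end and 866 because genes of both strands overlapped there.

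The libraries came from IMR-32, a human neuroblastoma cell line with an amplified MYCN gene, transduced with pLKO.1 lentiviral vectors and selected with puromycin for 2 days. CDK12 was depleted with the shRNAs sh22 and sh98 and CDK13 with sh701 and sh704 (2 libraries for each shRNA), and 2 libraries from cells with an shRNA against GFP served as the control. All 10 libraries, from different batches, were reduced to the size of the smallest, merged, and given to the peak caller once. The list therefore holds no value for any library or condition, and no strand: a peak was read on the strand of its gene, a comparison between shCDK12, shCDK13 and shGFP cells is not possible, and all intervals below cover counting error across peaks only. Depth per library was unknown for the same reason.

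The pileup, in reads, was recovered at each summit from the deposited fold and p-value. It counts distinct read starts rather than all reads, since its highest value in the list was 200, the most that reads extended to 100 bp on both strands can reach when 1 read is kept at each position. All 10 neuroblastoma markers examined had peaks near their annotated ends, with top pileups from 16 reads (ISL1) to 114 reads (PHOX2A), and 73 reads for MYCN. Of the 6 markers of other cells, PTPRC, PECAM1 and KRT5 had no such peak, ALB reached 3 reads, COL3A1 8 and COL1A1 14.

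Messenger RNA is cut a short distance downstream of a hexamer, most often AATAAA or ATTAAA in the genomic strand, and adenines that the genome does not encode are then added as the poly(A) tail. The cut normally lies beyond the stop codon. A cut inside the coding sequence leaves a transcript without an in-frame stop codon. The cyclin-dependent kinase CDK12 phosphorylates RNA polymerase II during elongation, and its loss is known for allowing cleavage at early sites in long genes. Poly(A) 3′-seq starts from an oligo(dT) primer, which anneals to tails and can also anneal to adenines that the genome does encode, for instance in runs of the lysine codons AAA and AAG.

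Sequences of 7 members are shown first, because the base composition beside the peak is what most separated the members from other coding sequence. Each line gives 60 bases of coding sequence on the gene's strand of GRCh38, the last 20 of them downstream of the peak's 3′ edge, and the 10 bases right after the edge are in capitals. LUC7L3, PHF14, NUCKS1 and TOP2A are among the members of highest pileup, the CENPF peaks come from one of the genes with most members, and RPS14 is a member with few adenines.
LUC7L3, chr17:50745927-50745986, plus strand: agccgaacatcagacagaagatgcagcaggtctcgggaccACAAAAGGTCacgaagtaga
PHF14, chr7:10982610-10982669, plus strand: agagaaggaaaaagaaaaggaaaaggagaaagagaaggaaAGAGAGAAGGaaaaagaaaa
NUCKS1, chr1:205719551-205719610, minus strand: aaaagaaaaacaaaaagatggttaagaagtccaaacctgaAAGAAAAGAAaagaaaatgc
TOP2A, chr17:40416792-40416851, minus strand: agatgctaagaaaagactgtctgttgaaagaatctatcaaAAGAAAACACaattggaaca
CENPF, chr1:214646796-214646855, plus strand: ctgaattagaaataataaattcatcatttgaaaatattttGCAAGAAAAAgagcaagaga
CENPF, chr1:214629108-214629167, plus strand: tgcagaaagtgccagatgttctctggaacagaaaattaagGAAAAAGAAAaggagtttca
RPS14, chr5:150447593-150447652, minus strand: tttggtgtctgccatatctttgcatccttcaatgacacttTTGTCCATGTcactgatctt
The capitals hold 8 adenines in NUCKS1 and the second CENPF peak, 7 in TOP2A and the first CENPF peak, 5 in LUC7L3 and PHF14, and 1 in RPS14. On the opposite strand, read from the other end of the peak, PHF14 had 9 adenines, so its strand is uncertain. In LUC7L3, PHF14 and RPS14 the edge lay more than 100 bp from the summit, so the bases shown can belong to another site.

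Adenines were frequent right after the 3′ edge of the members. Of their 10 downstream bases, 58.5% were A, against 25.8% over the downstream windows of all 22981071 coding positions that could have held a member (eligible positions). At least 7 of the 10 bases were A, termed A-rich here, for 1896 members (39.0%, 37.7 to 40.4%) and at 1.08% of eligible positions, a difference of 38.0 percentage points (Newcombe interval 36.6 to 39.3). Read on the opposite strand, from the other end of the same peaks, 6.07% (5.44 to 6.78%) were A-rich. For 200 members (4.12%) only the opposite strand was A-rich, and since the list has no strand, their assignment to the gene's strand is the least certain.

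The rise began before the threshold of 7. With 4192 members whose 3′ edge was itself at an eligible position, the density was 4.63 members per Mb (2.34 to 9.13) at positions followed by no A, 32.3 (27.8 to 37.6) at those followed by 3, 431 (402 to 463) at 5, 5067 (4769 to 5384) at 7 and 21133 (16893 to 26408) at 9. From 0 to 9 adenines, density was higher at each step. Only 89 eligible positions were followed by 10 adenines, and none of them carried a member.

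**Figure D1:**
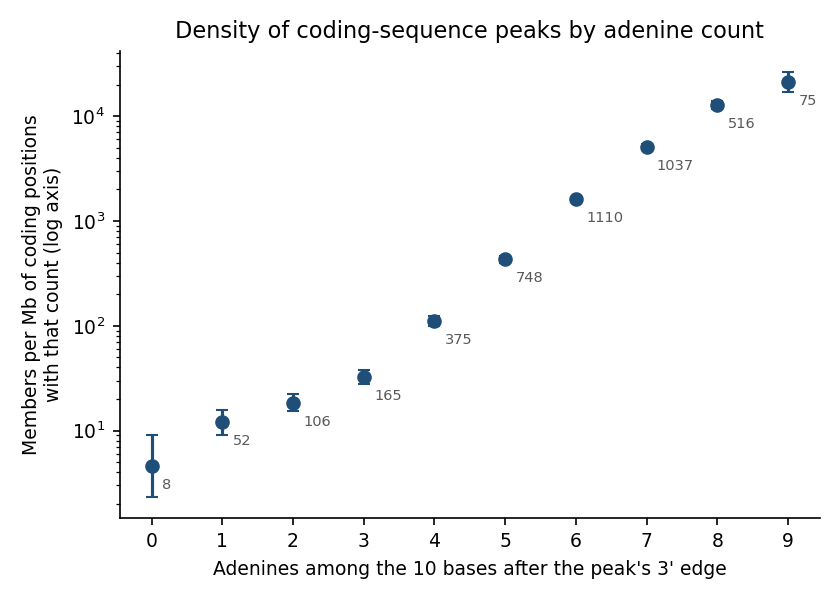
Members per Mb of eligible coding positions (log axis) against the number of adenines in the 10 bases after the 3′ edge, with 95% Wilson intervals and the number of members beside each point. Density rises from 4.63 per Mb at 0 adenines to 21133 per Mb at 9, and the value at 10 adenines is not drawn because no member lay there.

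The adenines were rarely pure runs. The longest run of A in the 10 bases was 3 in 1271 members and at least 5 in 1183 (24.4%), and reached 8 or more in 102. The longer form of A stretch that the study's own filter looked for, at least 22 adenines among 25 bases in the next 50 bp, followed 13 members (0.268%, 0.156 to 0.457%), against 8.83% of intronic peaks. A total of 27 members were followed by 10 adenines out of 10, and none of these had its 3′ edge in coding sequence: 24 edges lay in the next intron, 2 in untranslated exons and 1 in another exon.

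The composition changed sharply at the edge. Adenine stood at 44.3% of members at the base before the edge, 25.8% at the edge base, and 62.1% at the base after it, with its highest share, 64.7%, 3 bases downstream. Guanine was the most frequent edge base, at 34.4%. The shift was towards purines as a class: A and G together made up 80.5% of the 10 downstream bases, 67.2% of bases 11 to 20 and 57.1% of bases 21 to 30, against 52.2% of all eligible bases. Cytosine showed the opposite course and made up 6.73% of the 10 downstream bases against 25.9% of eligible bases. Upstream, at bases 41 to 50 before the edge, adenine was still at 33.6%, above the 25.8% of all eligible coding bases.

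**Figure D2:**
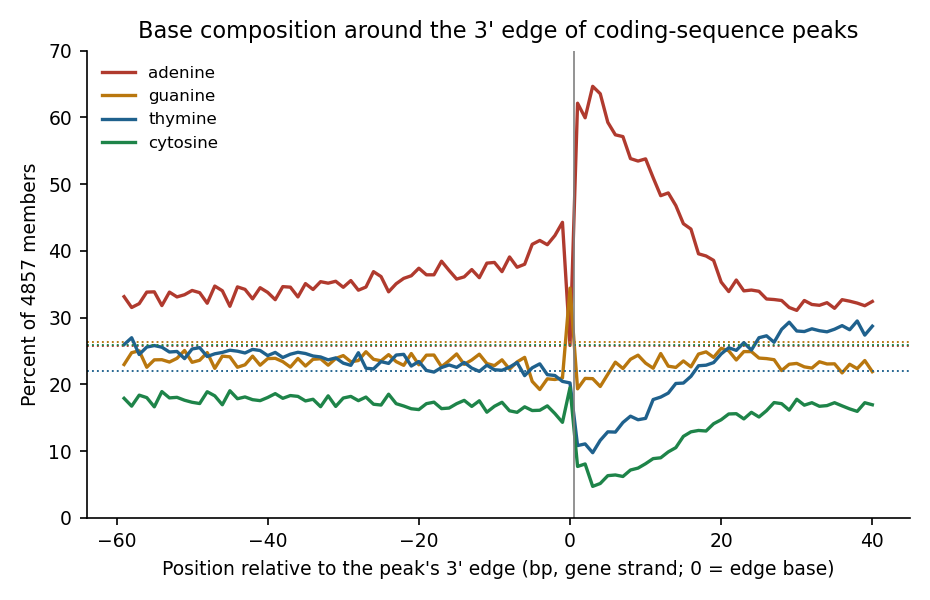
Percent of the 4857 members with each base at positions from 59 bp upstream to 40 bp downstream of the 3′ edge (0), on the gene's strand, with dotted lines for the share of each base over all eligible coding sequence. Adenine climbs to 64.7% at 3 bp downstream while cytosine falls to 4.71%.

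Read as codons, the downstream bases encoded mainly lysine and glutamate. Among the 4175 members with the 3′ edge in coding sequence and annotated codons after it, 32.1% of the downstream bases belonged to AAA or AAG, the lysine codons, against 5.72% over eligible positions. Glutamate codons took 21.4% against 7.16%, so that both amino acids together accounted for 53.5% against 12.9%. At least 1 base of a lysine codon occurred downstream of 3063 members (73.4%). The same share was not computed over eligible positions, and the 5.72% above, a share of bases, is not its background. Within each amino acid the codon ending in A was the more frequent: AAA made up 65.9% of the lysine bases against 44.7% in eligible sequence, and GAA 77.1% of the glutamate bases against 43.6%. AGA, an arginine codon, stood at 4.30% against 1.23%. Codons with few adenines were scarce, with proline at 0.936% against 6.27% and alanine at 1.93% against 7.03%. Eligible positions that were themselves A-rich had 39.3% lysine and 15.1% glutamate bases downstream. All of these positions have at least 7 adenines, whereas 39.0% of all members do, so their codon shares cannot be compared directly with those of the members.

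The core cleavage signal was uncommon. AATAAA or ATTAAA started 15 to 35 bp upstream of the 3′ edge in 291 members (5.99%, 5.36 to 6.69%), against 0.995% of eligible positions, a difference with an interval of 4.36 to 5.70 percentage points. In peaks at annotated transcript ends the share was 45.3%, in peaks in other exons 29.4% and in intronic peaks 10.6%, so the members were lower by 39.3 (38.4 to 40.1), 23.4 (22.3 to 24.5) and 4.63 (3.90 to 5.29) percentage points. The A-rich share of the members lay between those of the other classes: 24.2% at transcript ends, 31.3% in other exons and 70.3% in introns. Any of the 12 hexamers listed by the study stood in the same upstream window of 1045 members (21.5%, 20.4 to 22.7%) and of 6.12% of eligible positions.

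**Figure D3:**
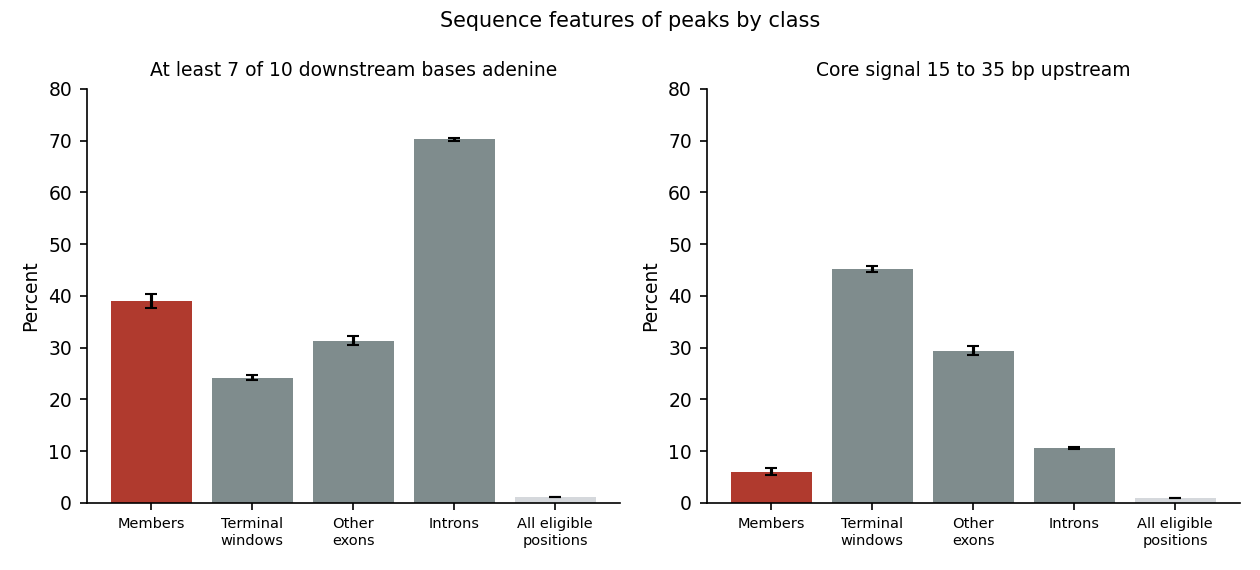
Percent of peaks with at least 7 adenines in the 10 bases downstream (left) and with AATAAA or ATTAAA 15 to 35 bp upstream (right), for members, 28511 peaks at transcript ends, 9988 in other exons and 103173 in introns, all with the strand of their gene and 95% Wilson intervals, beside all eligible coding positions. Members stand at 39.0% and 5.99%, and eligible positions at 1.08% and 0.995%.

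Combining both features, 1843 members (37.9%) were A-rich without the core signal, 238 (4.90%, 4.33 to 5.54%) had the signal without being A-rich, 53 (1.09%) had both and 2723 (56.1%) had neither. The last group was not free of adenines. Of all members, 2041 (42.0%) had 5 or 6 adenines in the 10 bases, a count found at 10.5% of eligible positions, and 775 (16%) had at most 4 adenines and no core signal. Median pileups, with 95% intervals from order statistics, were 11 reads (11 to 12) in the A-rich group, 12 (11 to 13) with the signal only, 17 (13 to 19) in the 53 with both, and 12 (11 to 12) with neither. The interval of those with both features lay above the intervals of the A-rich group and of the group with neither and touched that of the group with the signal only.

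Inside coding sequence the frame limits where the signal can occur, because AATAAA and ATTAAA hold the stop codon TAA and cannot begin at the second base of a codon. Of 113 AATAAA hexamers of members that lay wholly in coding sequence, 78 (69.0%, 60 to 76.8%) began at the first codon position and so formed the asparagine and lysine codons AAT and AAA, and 35 began at the third position. Over all eligible sequence 61.7% of AATAAA began at the first position. Of 60 ATTAAA hexamers, 29 began at the first position and 31 (51.7%, 39.3 to 63.8%) at the third, against 38.5% at the third in eligible sequence, a value just below that interval.

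SMC6, PSIP1 and HNRNPAB, from the 12 members of highest pileup with the signal and fewer than 7 adenines, and a WDR33 peak chosen after its values were seen illustrate this, here with the hexamer in capitals and 20 bases after the 3′ edge.
SMC6, chr2:17696290-17696349, minus strand: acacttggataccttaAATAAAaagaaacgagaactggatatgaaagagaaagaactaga
PSIP1, chr9:15468650-15468709, minus strand: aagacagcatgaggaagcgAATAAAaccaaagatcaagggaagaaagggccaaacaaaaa
HNRNPAB, chr5:178205919-178205978, plus strand: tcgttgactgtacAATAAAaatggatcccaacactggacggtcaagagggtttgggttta
WDR33, chr2:127721878-127721937, minus strand: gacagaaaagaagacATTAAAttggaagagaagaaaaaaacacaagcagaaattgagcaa
The hexamer began at the first codon position in SMC6, PSIP1 and WDR33 and at the third in HNRNPAB. SMC6, a subunit of the complex that resolves recombination intermediates, had 41 reads at codon 808 in exon 22 of 28, with the hexamer 23 bp upstream of the edge. PSIP1, a chromatin reader, also had 41 reads. HNRNPAB, an RNA-binding protein of the hnRNP family, had 43 reads in exon 3 of 8, with 3 of 10 downstream bases A and the hexamer 26 bp upstream. The WDR33 peak, in the subunit that itself binds AATAAA in the cleavage complex, had 31 reads at codon 518.

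Of the 12 members of highest pileup with the signal and fewer than 7 adenines, 8 carried AATAAA and 4 ATTAAA, and 7 had their 3′ edge in the same coding segment, 4 in an untranslated exon and 1 in an intron. Those in untranslated exons were WDR33 (42 reads, in a shorter transcript with 6 exons), a peak under the name MKKS (39), PDHB (37) and SETDB2 (35), and in PDHB and SETDB2 the summit lay at 97.3% and 99.2% of the coding sequence. The entry named MKKS here, ENSG00000285508, is a short open reading frame in which codon 41 lies at 80% of the coding sequence, annotated apart from the longer MKKS gene that it overlaps. STRN3 (38 reads), NPM1 (34), CCDC59 (33) and NIPBL (32) had the edge in coding sequence, whereas that of SOGA3 (39) was in an intron, 293 bp past its coding segment.

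The 3′ edge, the downstream end of the interval, lay in coding sequence for 4276 members (88.0%, 87.1 to 88.9%), of which 4235 were in the same segment as the summit. Reads were extended to 100 bp, so an edge farther than that from the summit can belong to another, weaker site. The median distance between them was 63 bp, but 528 intervals were 201 to 300 bp wide and 198 were wider. Among the peaks named in this text, the edge lay more than 100 bp from the summit in LUC7L3, PHF14, NCL (73 reads), BAZ1B (62 reads), MAN1A2 and CANX. SOGA3, NIPBL, REST, KCMF1, HDGFL3, ACBD3, ANP32B, RPL6, RPS14 and the peak under the name MKKS are further cases, and this list is not complete. The adenine counts and signals given for such peaks are those at the edge and can belong to another site. The edge lay in an intron for 362 (7.45%, 6.75 to 8.23%), in an untranslated part of an exon for 155 (3.19%, 2.73 to 3.72%) and in another exon for 64 (1.32%). The core signal differed between these places. It preceded the edge in 3.78% (3.24 to 4.40%) of members that ended in their own coding segment, in 14.4% (11.1 to 18.4%) of those that ended in an intron and in 36.8% (29.6 to 44.6%) of those that ended in an untranslated exon. A-rich sequence showed another order, with 39.0% (37.5 to 40.4%), 49.2% (44.1 to 54.3%) and 22.6% (16.7 to 29.8%). As a result, 51.3% of the 238 members with the signal and few adenines had their edge in coding sequence, against 87.7% of the A-rich members without the signal.

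Members whose edge lay in an intron had their summit in an exon and reached past its end by a median of 40 bp, and 226 of the 362 ended within 50 bp of the exon. The highest was in BAZ1B, a chromatin remodelling subunit, with 62 reads, 6 downstream adenines and an edge 16 bp past a 1702 bp coding exon. ZRANB2, a splicing regulator, followed with 50 reads and an edge 3 bp into the intron. ZRANB2 had 3 adenines downstream on its own strand and 8 on the opposite one. ACBD3, a Golgi protein, had 45 reads with 7 adenines, ANP32B, a histone chaperone, 40 reads with 6, and SOGA3 39 reads with 4 and an ATTAAA 28 bp upstream. SOGA3 was the only one of these 5 with a core signal. The summits of BAZ1B, ACBD3 and SOGA3 lay more than 100 bp inside their coding segment.

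Along the coding sequence, members became sparser from the start codon to the stop codon. The first 10% of the coding sequence held 649 members, 259 per Mb of eligible sequence in it, the stretch from 10 to 20% 276 per Mb, that from 40 to 50% 217 and the last 10% 176 per Mb. The first 20% and the last 20% had similar A-rich shares, 37.5% (34.9 to 40.2%) and 39.3% (35.7 to 43.0%). The core signal was more frequent in the last 20%, at 11.5% (9.35 to 14.1%), than in the first, at 4.51% (3.51 to 5.79%), and it was between 5.04% and 5.74% in the 3 stretches between them. The median distance from summit to stop codon was 1284 coding bases.

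Coding segments of over 100 and up to 200 bp, the usual size of an internal exon, held 2602 of the members in canonical transcripts (54.6%) and 41% of eligible bases, which gives 288 members per Mb. Segments of up to 100 bp had 199 per Mb, those of over 500 and up to 1000 bp 115 per Mb and those of over 1000 bp 137 per Mb. How exon size, base composition and expression shared in this was not tested.

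Pileups of members were lower than those at transcript ends and higher than those in introns. Their median was 12 reads, with quartiles of 8 and 17, a 99th percentile of 47 and a highest value of 79. At transcript ends the median was 15 reads, in other exons 13 and in introns 8. The share of members with at least 5 adenines downstream was 80% (77.9 to 82.0%) at up to 8 reads and 84.2% (79.6 to 87.8%) among the 303 members with 31 reads or more, with overlapping intervals. The A-rich share, with at least 7, was 38.3% (35.8 to 40.9%) at up to 8 reads, 42.3% (39.6 to 45.0%) at 9 to 12 reads and 33.7% (28.6 to 39.2%) at 31 or more, and the intervals of the last pair do not overlap. The core signal was at 5.08% (4.05 to 6.35%) at up to 8 reads and 6.93% (4.58 to 10.4%) at 31 or more, which overlap.

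The highest members included those of splicing, nucleolar and chromatin genes. LUC7L3, a splicing factor, had 79 reads at codon 246 in exon 8 of 10, with a fold of 15.4 over local background, against 43 reads at its highest terminal peak. NCL, which encodes nucleolin, had 73 reads against 68 at its end. Its 3′ edge reached the neighbouring coding exon, with 4 adenines on its own strand and 7 on the opposite one. NUCKS1, a chromatin protein, had 70 reads against 44, and HDAC2, a histone deacetylase, 69 against 61, both with 8 of 10 adenines downstream. MAN1A2, a Golgi mannosidase, and PHF14, a PHD finger protein, both had 65 reads, against 20 and 44 at their ends. PHF14 had 5 adenines on its own strand and 9 on the opposite one.

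BAZ1B (62 and 58 reads), CENPF (62), HNRNPA3 (62), TOP2A (61), CANX (61), HNRNPC (60) and KIF21A (59) were also among the 15 highest. All 15 exceeded the highest terminal peak of their own gene, 12 had at least 5 adenines downstream, 6 were A-rich and 1, in CENPF, had the core signal. The counts of adenines and signal were close to the shares over all members, 81.1%, 39.0% and 5.99%. CANX, which encodes the chaperone calnexin, had 3 adenines on either strand. NCL, NUCKS1, HNRNPA3 and HNRNPC have processed copies elsewhere in the genome, and reads that mapped to up to 20 places were kept, so their pileups are less certain.

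Most members were lower than their own gene's end. Of the 4750 members in genes with a terminal peak, the median reached 45.2% of the highest terminal pileup, 476 (10.0%, 9.20 to 10.9%) in 371 genes exceeded it, and 826 (17.4%) were at 25% of it or less. Since distinct read starts level off at strong sites, these ratios overstate the members where the terminal site is strong. The largest ratio was in KCMF1, a ubiquitin ligase, with 36 reads in the last coding exon and an edge 135 bp beyond the stop codon, against 5 reads at its highest terminal peak. HDGFL3 had 40 reads against 8, REST, the repressor of neuronal genes, 38 against 11 and UTP18, a nucleolar ribosome factor, 50 against 15. The REST summit lay at codon 441 in its last exon. Its 3′ edge, more than 100 bp downstream of that codon, was followed by 8 adenines and had AATAAA 34 bp upstream of it. These features can therefore belong to another site than the summit. A further 107 members lay in genes without a terminal peak.

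At the level of genes, 2809 of the 12563 protein-coding genes with eligible coding sequence and a terminal peak had at least 1 member (22.4%, 21.6 to 23.1%). Of all genes with a member, 1899 had exactly 1, 463 had 3 or more and 63 had 6 or more. The share was 8.37% (7.45 to 9.39%) in the 25% of genes with the least eligible coding sequence and 41.5% (39.8 to 43.2%) in the 25% with the most, whereas members per kb were 0.331 and 0.279. Over the highest terminal pileup of the gene, a coarse stand-in for its expression, both values went from 11.9% (10.8 to 13.1%) of genes and 0.124 per kb in the lowest 25% of genes to 28.8% (27.2 to 30.5%) and 0.423 per kb in the highest.

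The widest range came with the A-rich share of a gene's own coding sequence. In the 25% of genes with the largest share, 52.4% (50.7 to 54.1%) had a member, at 0.648 per kb, and among the 3966 genes with no A-rich position at all, 2.22% (1.80 to 2.73%) had one, at 0.0326 per kb. This held at either level of terminal pileup. At terminal pileups of up to 23 reads, the share of genes with a member was 3.15% (2.62 to 3.79%) below the median A-rich share and 44.5% (41.9 to 47.0%) in the top 25%. Above 23 reads it was 7.29% (6.39 to 8.30%) and 59.1% (56.7 to 61.4%).

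The 15 genes with the most members encode very long proteins, many of them built on coiled coils rich in lysine and glutamate. DST, a cytoskeletal linker, had 18 members, SYNE2, a nuclear envelope protein, 17, and CEP350, a centrosomal protein, 15. CENPF (kinetochore), AKAP9 (a kinase anchor at the centrosome and Golgi), MDN1 (a ribosome biogenesis ATPase) and CEP290 (cilium and centrosome) had 13 each. CENPE, the kinetochore motor, BDP1, a subunit of a factor for RNA polymerase III, and MACF1, a cytoskeletal linker, had 11 each. ROCK1, TPR and SYNE1 had 10, and KIF20B and ASPM 9. Together they held 183 members (3.77%), of which 167 (91.3%) had at least 5 adenines downstream, 80 (43.7%) were A-rich and 6 had the core signal. Over all members these shares were 81.1%, 39.0% and 5.99%, so the A-rich share of these genes was near that of all members.

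Coding length and member count did not run in step among these genes. ROCK1, a kinase with a long coiled coil, had the least eligible sequence, 3745 bp, and the highest density, 2.67 members per kb. SYNE1 and MACF1, with 23393 and 24097 bp, had 0.427 and 0.456 per kb, and A-rich positions made up 1.61% and 1.26% of their coding sequence, against 4.81% in ROCK1 and 7.46% in CEP290 (1.98 members per kb). The A-rich share did not fix the order of density, however. ASPM, with 4.79% of positions A-rich, had 0.936 members per kb, DST, with 2.90%, had 0.660, and MDN1, with 1.18%, had 0.855. AKAP9, CENPE and KIF20B, at 6.68%, 6.78% and 6.52%, had 1.59, 1.46 and 1.71 per kb. In MDN1, 9 of the 13 members lay between 68% and 94% of its coding sequence, with 15, 8, 15, 15, 28, 40, 18, 14 and 10 reads in that order.

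In CENPF, the 13 members stood, from the start to the stop codon, at 35, 46, 11, 44, 25, 34, 32, 25, 62, 24, 13, 23 and 20 reads. Its 2 terminal peaks reached 61 reads, which only the member at 76.8% of the coding sequence exceeded. In TPR, a nuclear pore protein, the 10 members ranged from 14 to 32 reads, and 8 of them were above the 17 reads of its highest terminal peak. BDP1 was similar, with 9 to 34 reads in the coding sequence and 11 reads at its only terminal peak. In SYNE2, by contrast, the members had 5 to 22 reads and the end 27. Its eligible coding sequence was 11158 bp, and the rule allows no member outside it.

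Lists of genes by function were counted next, and they were chosen with earlier results of these data known. The mitosis and centrosome list holds CENPF, AKAP9, CEP290, CEP350, CENPE, ROCK1, KIF20B and ASPM, and the cytoskeletal list DST and MACF1. All of these are among the genes with the most members named above, so the values of both lists are not independent of that choice. In the mitosis and centrosome list, 48 of 53 eligible genes had a member (90.6%, 79.7 to 95.9%), with 220 members at 1.10 per kb, against 22.4% and 0.279 per kb over all genes. A-rich positions made up 3.70% of their coding sequence, against 1.13%, and per 1000 such positions they had 29.9 members, against 24.7 over all genes. Here and below, this last figure counts all members, A-rich or not, so it is not a rate at A-rich positions. TOP2A, the topoisomerase that untangles chromosomes, SMC1A, a cohesin subunit with 49 reads against 16 at its end, and ROCK1, with 46 against 28, followed CENPF as the highest. Among chromatin regulators 61 of 72 genes (84.7%, 74.7 to 91.2%) had 170 members, or 31.8 per 1000 A-rich positions, with 3 peaks of BAZ1B (62, 58 and 43 reads) and that of PHF14 as the highest. The 46 microtubule and cytoskeletal genes, 28 of which had a member (60.9%, 46.5 to 73.6%), had long coding sequences and a density of 0.450 per kb, or 31.1 per 1000 A-rich positions. MAP1A had 50 reads against 19 at its end and MYH10 42 with 9 of 10 adenines. TLN1, on the list but outside these 46 genes because it has no terminal peak, had 40.

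Genes for splicing, ribosome biogenesis, translation and chaperones had dense, high members. Their median eligible coding lengths, from 537 to 1416 bp, were shorter than those of the mitosis, chromatin and cytoskeletal lists, from 2899.5 to 3770.5 bp. Of 66 splicing and RNA-binding genes, 44 (66.7%, 54.7 to 76.8%) had 85 members at 0.929 per kb, with a median pileup of 21 reads, the highest of all lists, and LUC7L3, HNRNPA3, HNRNPC and SON (57 reads, 8 adenines) at the top. Nucleolar and ribosome biogenesis genes had a member in 26 of 39 (66.7%, 51.0 to 79.4%), at 0.840 per kb. NCL had 73, 54 and 44 reads and CEBPZ 56. Translation factors had one in 14 of 36 (38.9%, 24.8 to 55.1%), at 0.930 per kb, with EIF3A (55, 49 and 41 reads) and EIF5B (53). Chaperones had one in 19 of 32 (59.4%, 42.3 to 74.5%), at 1.18 per kb, with CANX, CCT6A (56), HSP90AB1 (53) and HSPD1 (52). Per 1000 A-rich positions these lists had 43.4, 40.2, 39.0 and 66.7 members, in the order given.

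Cytosolic ribosomal protein genes stood out by density, at 1.48 members per kb, although 23 of 72 (31.9%, 22.3 to 43.4%) had a member. Per 1000 A-rich coding positions they had 111 members of any adenine count, against 24.7 over all genes, but only 6 of their 25 members were A-rich. RPL37A had 51 reads with no adenine downstream, RPS27L 48 with 3, RPL6 48 with 5 and RPS14 41 with 1. RPS27L had 7 adenines on the opposite strand. The summits in RPL37A, RPS27L and RPS14 lay at codons 11, 4 and 2, in the second exon of each. Their genes had a median top terminal pileup of 53.5 reads, and they too have many processed copies, so multiply mapped reads may be among these counts.

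ZNF genes, most of which encode zinc-finger transcription factors, lay below the other lists. Members were found in 60 of 390 (15.4%, 12.1 to 19.3%), at 0.171 per kb, with A-rich sequence at 1.03% of positions, close to the 1.13% of all genes, and at 16.6 per 1000 A-rich positions. ZNF106 had 37 reads, ZNF326 34 and ZNF318 and ZNF292 30 each. The median terminal pileup of this list, 21 reads, was also the lowest.

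In the genes for cleavage and polyadenylation factors, 15 of 30 (50%, 33.2 to 66.8%) had 25 members, 26.8 per 1000 A-rich positions, 4 of them with the core signal. The highest were in WDR33 (42 and 31 reads), PABPC1 (40), which encodes the cytoplasmic poly(A)-binding protein, and RBBP6 (37, A-rich). Both WDR33 peaks had the core signal and fewer than 7 adenines.

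For the DNA damage response genes listed by the study, 55 of 141 (39.0%, 31.3 to 47.2%) had 109 members at 0.520 per kb, with A-rich sequence at 1.96% of positions. Per 1000 A-rich positions this gave 26.5 members, near the 24.7 of all genes. The highest were in TDG (40 reads), a DNA glycosylase, TP53BP1 (35), RFC1 (34, at codon 9) and XRCC6 (34, at codon 1, with 3 adenines). Genes that the study listed for premature cleavage and polyadenylation (PCPA), which it chose on other libraries, had a member in 301 of 722 (41.7%, 38.1 to 45.3%), at 0.456 per kb and 25.9 per 1000 A-rich positions. MAN1A2, PHF14 and BAZ1B were the highest of them.

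**Figure D4:**
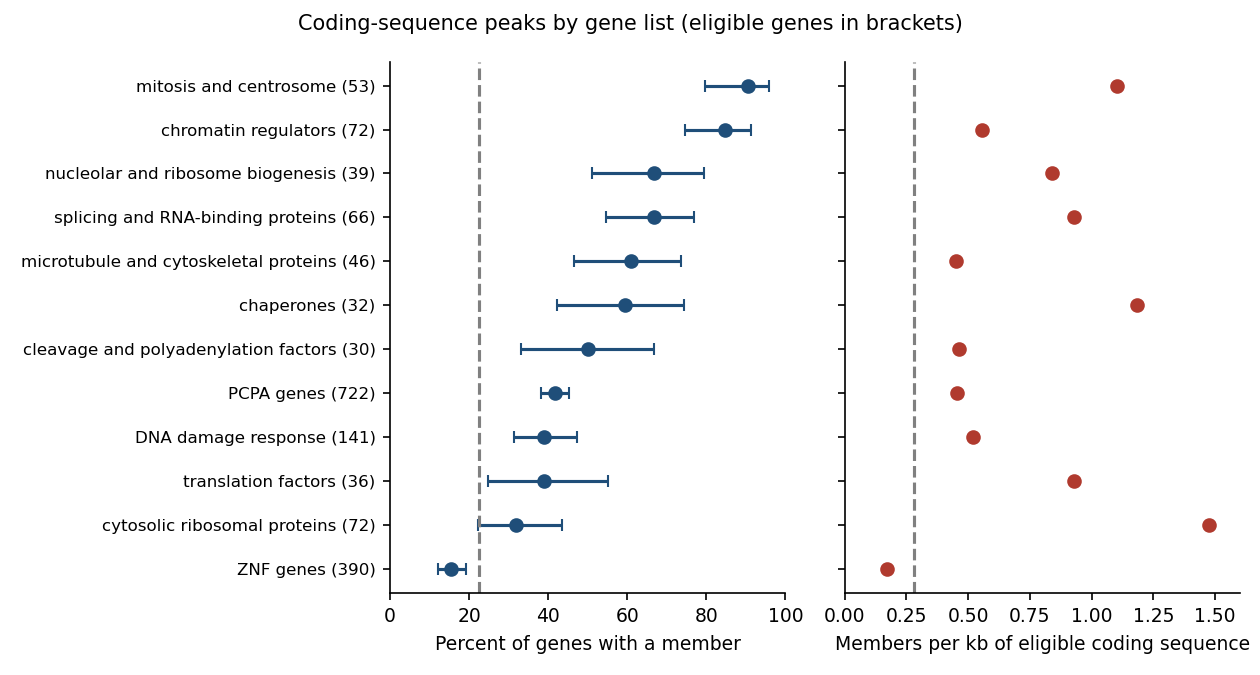
Left, percent of eligible genes in each list with at least 1 member, with 95% Wilson intervals. Right, members per kb of eligible coding sequence, with dashed lines in both panels at the values over all 12563 genes (22.4% and 0.279 per kb). Mitosis and centrosome genes are highest by percent (90.6%), cytosolic ribosomal proteins by density (1.48 per kb) and ZNF genes lowest by both. The lists were chosen with earlier results of these data known, and that of mitosis and centrosome holds several of the genes with the most members.

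Of the depleted kinases, CDK12 held members and CDK13 did not. CDK12 had 3 (0.760 per kb, against 0.279 over all genes), of 15, 9 and 8 reads at 8%, 12% and 30% of its coding sequence, with 5 or 6 adenines each and no core signal, against 22 reads at its highest terminal peak. CDK13, with 4069 eligible coding bases, and CCNK, the cyclin of both kinases, with 197, had none. At 0.279 members per kb over all genes, few would fall in sequence of these lengths, so such counts do not set CDK12 apart from CDK13. BRCA1 had 3, of 14, 13 and 11 reads, all A-rich (0.783 per kb). BLM, a RecQ helicase, had 2, of 10 and 7 reads, within the first 2.47% of its coding sequence, one of them with the core signal. BARD1, the partner of BRCA1, had 1 of 18 reads, against 17 at its end, and PCF11, a termination factor, 1 of 29 reads, with 7 adenines, against 28. MYCN had no member in 1207 eligible bases, 0.829% of which were A-rich. Whether any of these peaks changed on depletion of CDK12 or CDK13 was not tested, because the libraries are pooled in the list.

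Whether single members arose from primers annealing to encoded adenines or from tails added at these positions was not tested either, and the pooled list gives no value that tells the origins apart at a single peak.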

How the data were processed

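Poly(A) 3′-seq libraries were made with the QuantSeq 3′ mRNA Sequencing REV kit. Per the study's methods and processing notes, the authors trimmed reads, mapped them to GRCh38 with STAR 2.5.1b (up to 20 places per read), merged all downsampled libraries and ran MACS2 2.1.1 with 100 bp extension. The study then removed peaks that had the long A stretch downstream but none of its 12 hexamers within 100 bp upstream. Whether the deposited list stands before or after that step was not determined here. The deposited values are, for each peak of the pooled reads, the fold (a ratio of pileup to local background), the −log10 p-value and −log10 q-value, and a score derived from the q-value by the authors, which was not analysed. From fold and p-value the whole-number pileup was recovered, with a miss of at most 0.000168 in −log10 p. Peaks were annotated with GENCODE 44 on GRCh38, the 3′ edge being the end of the interval downstream on the gene's strand. Codons are those of the canonical transcript. List names were matched through RefSeq synonyms where outdated. Shares have 95% Wilson intervals and their differences Newcombe intervals. There was no test, since no value per library exists. Named genes were the 15 with most members, the 15 highest members, the 12 highest with signal and fewer than 7 A, the 5 highest ending in an intron, the 5 with the largest ratio to the gene's end, 8 genes of the study, and up to 4 members per list. Of these, 2 genes are not reported here. The members and lists were chosen with earlier results of these data known. Steps were tested on simulated data. Alternatives changed the threshold, the position, the transcripts, the window around transcript ends, merging, and the definitions of A-rich and signal. Python 3.11.15, numpy 2.4.6, scipy 1.17.1, pandas 2.3.3, pysam 0.24.0, samtools 1.23.1 and matplotlib 3.10.9 were used.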

Additional observations from a re-analysis of the deposited data

How the results depend on the processing

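Of 71 values recomputed under alternatives, 46 stayed within the counting interval of the reported value (counts of members within 1.5 times), and the 25 others are given here. The cause was not tested unless the alternative's construction shows it. Only peaks of −log10 q of at least 5 gave a median pileup of 13 reads, 40.6% A-rich and 19.1% of genes with a member. Those of at least 20 left 602 members with a median pileup of 29 reads, 36.9% A-rich, 3.99% with the core signal and few adenines, 92.4% with the 3′ edge in coding sequence, 33.7% lysine codon bases and 3.95% of genes with a member, higher pileups and fewer genes following from the threshold itself. Assigning peaks by the 3′ edge, which takes in 6678 peaks and puts every edge in coding sequence by construction, gave 3.85% with the core signal, 2.79% with the signal and few adenines and 26.5% of genes. Windows of 100 bp on both sides of transcript ends, or reaching 2000 bp downstream, gave 24.7% and 20.1% of genes. Requiring 6 or 8 adenines gave 64% or 15.2% A-rich, and 3.91% or 5.64% with the signal and fewer adenines, whereas the 25-base stretch gave 0.268%. Any of 12 hexamers gave 21.5%, and 13.9% with few adenines, and the core signal anywhere within 100 bp gave 15.3% and 10.3%. Reading the downstream bases across the splice junction for 530 members near the end of a coding exon gave 41.5% A-rich. Assignment by the centre, canonical transcripts only and merging of peaks closer than 100 bp moved no value outside its interval. No paired analysis was possible because every value pools the 10 libraries. Without strand or depth per library, pileups rank peaks and do not measure abundance, and shares are limited by counting error and by peaks of overlapping origin.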

Other observations

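A total of 119 members had their summit within the first 10 codons of the coding sequence, and 35 of them had at most 4 adenines downstream and no core signal, against 775 of 4857 (16%) over all members. XRCC6, RPS27L and RPS14 are among these 35. TOP2A and RFC1, at codons 8 and 9, were A-rich instead, with 7 adenines each.

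The narrowest intervals were more often A-rich than wider ones. In the 2741 members of at most 120 bp, 43.2% (41.4 to 45.1%) were A-rich and 4.78% (4.04 to 5.64%) had the core signal. Of the 198 members wider than 300 bp, 33.8% (27.6 to 40.7%) were A-rich and 9.09% (5.83 to 13.9%) had the signal. The classes between did not run in order, with 31.3%, 35.4% and 34.3% A-rich and 8.73%, 5.69% and 7.95% with the signal at 121 to 150, 151 to 200 and 201 to 300 bp.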
